A study of Mus musculus with 2 samples.

Results

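The 39 genes described here are the 37 genes of the mouse mitochondrial genome (13 protein-coding genes, 2 rRNA genes and 22 tRNA genes) and 2 pseudogenes on chromosome 1, Gm28437 and Gm28661, out of 43346 Ensembl genes listed. They were chosen by name: every gene whose symbol starts with mt-, together with those 2 pseudogenes. RNA came from limbs of B6NCrl mouse embryos at embryonic day 14.5, with no treatment named, and all samples belong to 1 group of 2 libraries, so no comparison between conditions exists. Each library was made from 10 ng of total RNA above 200 nt with spike-in RNAs, from the 4 limbs of a pup according to the labels, which also give the sex as pooled and the same donor for both with different collection days. An SD over n = 2 measures only the spread between these libraries.

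The libraries held 34193161 expected counts (replicate 1) and 32879425 (replicate 2), of which spike-ins took 5.29% and 5.20%. The labelled tissue was checked against markers: all 6 limb mesenchyme, 3 cartilage and 4 muscle markers were above 1 TPM (transcript abundance per length, brought to a common total) in both libraries, none of 3 liver markers was, and the brown fat gene Ucp1 was listed at 0. Of 4 heart markers 2 were above 1 TPM in both libraries, and the list summed to 174 TPM in replicate 1 and 122 TPM in replicate 2. The highest of them had a mean of 144 TPM, so that sum is mostly 1 gene and does not show heart tissue. The libraries differed in makeup. Summed red blood cell markers stood at 26887 (replicate 1) and 18239 TPM (replicate 2), summed muscle markers at 1080 and 712 TPM, and summed limb mesenchyme markers at 329 and 417 TPM. Counts over 4 Y-linked genes were 6631 in replicate 1 and 0 in replicate 2, which goes against the label of pooled sexes for replicate 2. Replicate 1 therefore holds male tissue that replicate 2 lacks, and the libraries are not repeats of 1 pup's RNA.

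The mitochondrial genome is a small circular DNA whose genes sit almost without gaps. It is read from both strands into long RNAs that are cut apart, mostly at the tRNAs that lie between the messages, and its products are the RNAs of the mitochondrial ribosome, the tRNAs and core subunits of the respiratory chain and ATP synthase. Pieces of this genome have also been copied into nuclear chromosomes during evolution, and such copies are annotated as pseudogenes. A read from a stretch that is the same in both places cannot be assigned to either by its sequence.

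The 2 pseudogenes carry the letters of mitochondrial genes, which is shown here because the values below turn on it. The first 100 bases, the length of sequence that the deposited effective lengths treat as 1 read, are the same in Gm28437 (chr1:24613872-24613971, minus strand, mm10) and in mt-Co3 (chrM:8607-8706, plus strand).
Gm28437: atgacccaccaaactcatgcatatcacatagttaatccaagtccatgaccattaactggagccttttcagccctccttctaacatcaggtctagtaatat
mt-Co3: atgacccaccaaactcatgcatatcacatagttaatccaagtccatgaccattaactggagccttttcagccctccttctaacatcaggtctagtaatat
The same held for Gm28661 (chr1:24615466-24615565, minus strand) and mt-Co2 (chrM:7013-7112, plus strand).
Gm28661: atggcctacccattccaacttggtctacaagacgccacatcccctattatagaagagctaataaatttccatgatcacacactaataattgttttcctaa
mt-Co2: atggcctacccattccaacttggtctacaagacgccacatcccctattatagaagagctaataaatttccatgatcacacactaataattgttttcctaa

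Both are annotated as unprocessed pseudogenes, Gm28437 at chr1:24613189-24613971 and Gm28661 at chr1:24614885-24615565. Along their whole length, all 783 bases of Gm28437 matched mt-Co3, which is 784 bases long, and all 681 bases of Gm28661 matched mt-Co2, which is 684 bases long. The mitochondrial genes differ only by running on at the end, shown with the extra bases in capitals (mt-Co3 at chrM:9370-9390, mt-Co2 at chrM:7674-7696).
mt-Co3: ccatttattgatgaggatctT
Gm28437: ccatttattgatgaggatct
mt-Co2: actgatctgcttcaataattTAA
Gm28661: actgatctgcttcaataatt
As a result, all 684 windows of 100 bases in Gm28437 and all 582 in Gm28661 were found letter for letter in the mitochondrial gene. Only 1 window of mt-Co3 and 3 windows of mt-Co2 were not found in a nuclear transcript.

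These pseudogenes were not alone. Across annotated transcripts outside the mitochondrial genome, 10 shared at least 1 window of 100 bases with a mitochondrial gene, 7 on chromosome 1 and 3 on chromosome 2. The 7 on chromosome 1 lie side by side on the minus strand at chr1:24611535-24616197, a block of 4663 bases, and follow the order of a mitochondrial stretch of 4662 bases, chrM:6381-11042. In that order they match the end of mt-Co1 (Gm29216), mt-Co2 (Gm28661), mt-Atp6 (Gm10925), mt-Co3 (Gm28437), mt-Nd3 (Gm28438), mt-Nd4l (Gm10222) and the first part of mt-Nd4 (Gm28439). The short gene mt-Atp8 and the 5 tRNA genes mt-Ts1, mt-Td, mt-Tk, mt-Tg and mt-Tr lie in the same stretch but have no annotated copy.

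**Figure D1:**
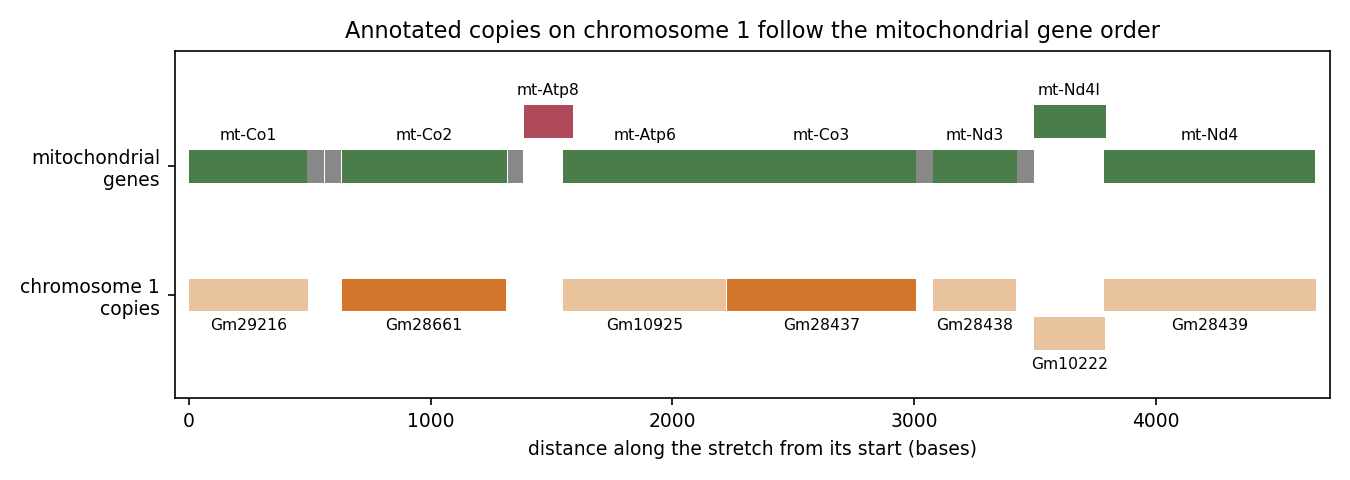
Map of the mitochondrial stretch (upper row, protein-coding genes in green, mt-Atp8 in red, tRNA genes in grey) and of the 7 annotated chromosome 1 copies (lower row, Gm28437 and Gm28661 in dark orange), drawn to scale against the distance from the start of the stretch in bases. mt-Atp8 and mt-Nd4l, and the copy Gm10222, are offset because neighbouring genes overlap. The copies follow the mitochondrial order. mt-Atp8 has no copy of its own below it, but the bar of Gm10925 starts under its last 43 bases, which mt-Atp6 shares.

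Of the 7 copies on chromosome 1, 5 matched the mitochondrial gene in every base. The others differed close to their start. Gm28438 differed from mt-Nd3 at 1 of 345 bases, T3C, and Gm29216 differed from mt-Co1 at 6 of 492 bases, all within its first 13: T1056A, C1057T, A1059G, A1060G, C1062A and A1066T (positions counted from 1 at the first base of the mitochondrial gene, whose base is given first). The stretches are shown with the differing bases in capitals, for mt-Co1 at chrM:6381-6413, Gm29216 at chr1:24616165-24616197, mt-Nd3 at chrM:9459-9481 and Gm28438 at chr1:24613097-24613119.
mt-Co1: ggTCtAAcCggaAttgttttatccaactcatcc
Gm29216: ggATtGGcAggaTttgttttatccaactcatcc
mt-Nd3: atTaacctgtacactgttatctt
Gm28438: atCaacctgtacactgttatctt

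Of the 39 genes, 17 reached 1 TPM in both libraries: all 13 protein-coding genes, both rRNA genes and both pseudogenes. All windows of the pseudogenes are shared, so their levels rest on the deposited split of reads and do not show that either is transcribed. The 22 tRNA genes were listed at 0 in both. Their lengths ran from 59 nt (mt-Ts2) to 75 nt (mt-Tl1), and each had an effective length of 0, which leaves no room for a read of 100 bases. Across all features listed, 28403 had an effective length of 0 and none of them held a count, so a value of 0 for a mitochondrial tRNA gives no measurement of it. The lengths of the tRNA genes also lie below the 200 nt limit of the RNA used for the libraries. The size of the gap is plain from the shortest tRNA gene, for a serine tRNA at chrM:11613-11671, printed whole.
mt-Ts2: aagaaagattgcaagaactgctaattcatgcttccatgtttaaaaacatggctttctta

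The 37 mitochondrial genes held 1.76% of all gene counts without spike-ins in replicate 1 and 1.73% in replicate 2 (1.75% ± 0.0181, SD, n = 2). The 2 pseudogenes held 0.518% and 0.495%, and adding all 10 nuclear copies to the mitochondrial genes gave 2.45% and 2.38%. In bulk tissue, more cells rich in mitochondria and more mitochondrial RNA per cell cannot be told apart.

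The RNAs of the mitochondrial ribosome share no window with a nuclear transcript, and their counts were whole numbers. mt-Rnr2, the RNA of the large subunit (chrM:1094-2675, plus strand), stood at 3691 (replicate 1) and 3590.4 TPM (replicate 2). mt-Rnr1, the RNA of the small subunit (chrM:70-1024, plus strand), stood at 1379 and 1339 TPM. The large-subunit RNA was above the small-subunit RNA by the same 2.68-fold in each library. Their sum was 5000 ± 99.1 TPM (SD, n = 2), and on TMM-scaled counts (library sizes adjusted so that typical genes match) each had a log2 ratio of -0.12, replicate 2 over replicate 1. How RNA was selected for the libraries was not taken into account here. Levels of rRNA against messages, and of the rRNAs against each other, therefore describe the libraries only.

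Complex I, which takes electrons from NADH, has 7 subunits encoded here, and their deposited levels spanned 46.8-fold. mt-Nd1 (chrM:2751-3707) was highest at 2667 and 2569 TPM in replicates 1 and 2, and mt-Nd4 (chrM:10167-11544) followed at 1364 and 1388 TPM. mt-Nd2 (chrM:3914-4951) stood at 716 and 695 TPM and mt-Nd5 (chrM:11742-13565) at 417 and 399 TPM. mt-Nd6 (chrM:13552-14070, minus strand), the only protein-coding gene of the opposite strand, stood at 425 and 402 TPM. The ranges of mt-Nd5 and mt-Nd6 overlapped. With library strand not given in the sources used here, reads of mt-Nd6 and of RNA made opposite to it cannot be told apart. Lowest were mt-Nd3 (chrM:9459-9806), at 290.1 and 198 TPM, and mt-Nd4l (chrM:9877-10173), at 17.2 and 94.7 TPM. These lowest genes are also those of complex I with 97.6% and 98.5% of their windows shared with chromosome 1.

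With the reads of the copies added, mt-Nd3 stood at 1425 (replicate 1) and 1266 TPM (replicate 2), and mt-Nd4l at 787 and 779 TPM. The span over complex I then shrank to 6.41-fold. The split was uneven: mt-Nd3 received 20.4% and 15.7% of the reads pooled with Gm28438, and mt-Nd4l received 2.19% and 12.2% of those pooled with Gm10222. By posterior mean count mt-Nd3 received 20.3% and 18.5%, and mt-Nd4l 4.03% and 21.4%. Alone, mt-Nd4l was 5.21-fold higher in replicate 2 (log2 ratio 2.38), whereas the pooled counts, 3581 and 3310.0, differed by a log2 ratio of -0.09. For mt-Nd4 the tables gave all reads to the mitochondrial gene and listed its perfect copy Gm28439 at 0 in both libraries, although 60.8% of the windows of mt-Nd4 are shared.

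mt-Nd4l and mt-Nd4 overlap by 7 bases at chrM:10167-10173, in capitals below, so that the same bases end one gene and start the other (mt-Nd4l shown from chrM:10147, mt-Nd4 up to chrM:10193).
mt-Nd4l: caaaatctcaacctactacaATGCTAA
mt-Nd4: ATGCTAAaaattattcttccctcacta
On the deposited values mt-Nd4l was below mt-Nd4 by a log2 ratio of -6.30 in replicate 1 and -3.87 in replicate 2. With copies pooled the mean log2 ratio was -0.81. These ratios compare reads over the genes and do not show that the genes lie on separate RNAs.

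Complex III passes electrons on to cytochrome c, and mt-Cytb (chrM:14145-15288), cytochrome b, is its only subunit encoded here. It stood at 3310.4 (replicate 1) and 3343 TPM (replicate 2), shared no window with a nuclear transcript and held whole-number counts, 79531 and 74975.

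Complex IV, cytochrome c oxidase, passes electrons to oxygen, and all 3 of its subunits encoded here lie in or reach into the copied stretch. mt-Co1 (chrM:5328-6872) stood at 2044 and 2292 TPM in replicates 1 and 2, mt-Co2 (chrM:7013-7696) at 1671 and 1827 TPM and mt-Co3 (chrM:8607-9390) at 1697 and 1698 TPM. On these values the ranges of mt-Co2 and mt-Co3 overlapped, and mt-Co1 was above both. That place of mt-Co1 rests on the deposited split of shared reads. By posterior mean TPM mt-Co1 ranked 7 among the protein-coding genes, below mt-Co3 at 3 and mt-Co2 at 6. With all copies pooled it ranked 6, below mt-Co3 at 1 and mt-Co2 at 4. The near equality of mt-Co3 between the libraries says little about precision, because the deposited credibility interval ran from 949 to 7910 TPM in replicate 1 and from 1089 to 7316 TPM in replicate 2.

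Gm28437 held most of the reads that fit mt-Co3, with 8751 TPM in replicate 1 and 8683 TPM in replicate 2. By level it was 3rd among all genes in replicate 1 and 2nd in replicate 2. Its expected counts were 137606 and 127465, against 26732 and 24963 for mt-Co3. Each of these is a fraction of a read off a whole number, yet their sums were 164338.0 and 152428.0. The mitochondrial gene received 16.3% and 16.4% of that sum by expected count, and 34.5% and 37.1% by the posterior mean count deposited in the same tables. The posterior standard deviation was the same for gene and pseudogene, 39705 counts in replicate 1 and 35016 in replicate 2, and exceeded the whole expected count of mt-Co3. Pooled, the pair stood at 10435 and 10368 TPM (10402 ± 47.7, SD, n = 2), 6.15-fold and 6.11-fold above mt-Co3 as deposited.

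Gm28661 stood at 2245 and 2137.5 TPM, above mt-Co2 in both libraries. By posterior mean count the order turned: mt-Co2 received 55.7% and 56.0% of the pooled reads, against 42.8% and 46.2% by expected count. Pooled with Gm28661 and the chromosome 2 copy Gm13341, which held 17.04 and 11.68 counts, mt-Co2 stood at 3906 and 3954 TPM. mt-Co1 received 79.3% and 79.6% of its pooled reads by either estimate, with Gm29216 at 17661 and 18224 counts, and stood at 2576 and 2880 TPM when pooled. Summed over complex IV, the deposited 5614 ± 286 TPM became 17060 ± 202 TPM with the copies' reads (SD, n = 2).

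**Figure D2:**
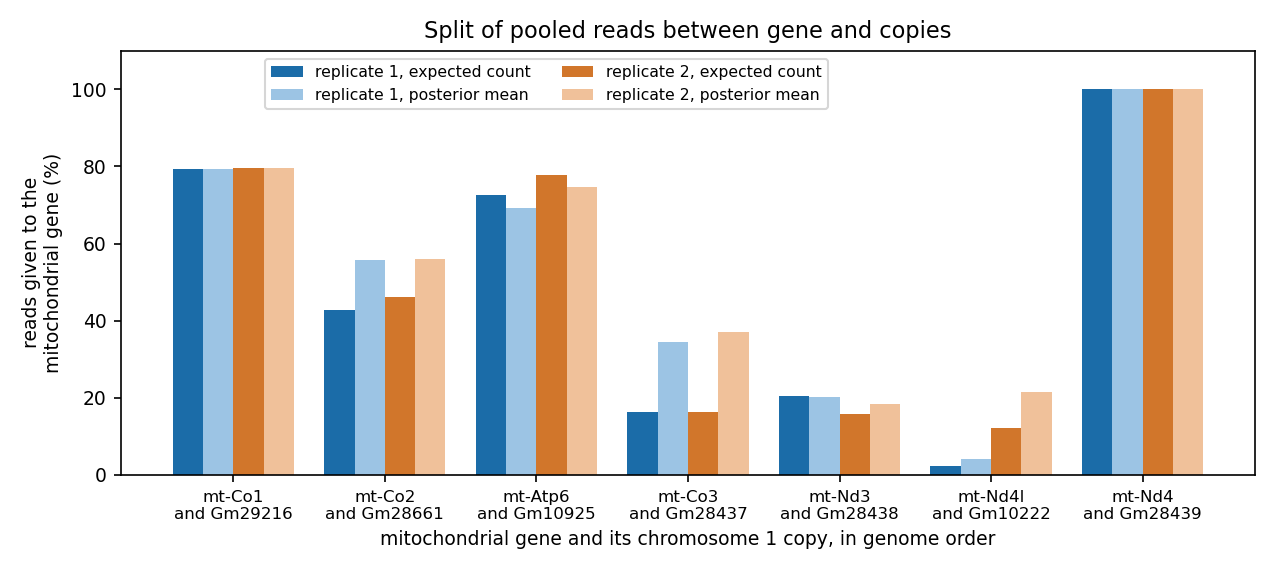
Percent of the reads pooled over a mitochondrial gene and its nuclear copies that the deposited tables give to the mitochondrial gene, by expected count (dark) and posterior mean count (light), for replicate 1 (blue) and replicate 2 (orange). The pools of mt-Co2 and mt-Co1 also hold a copy on chromosome 2; for mt-Co3 the estimates run from 16.3% to 37.1%, and for mt-Co1 they stay at 79.3% and 79.6%.

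ATP synthase makes ATP from the proton gradient, and its subunits 6 and 8 are encoded here by genes that overlap by 43 bases at chrM:7927-7969, in capitals below (mt-Atp8 shown from chrM:7907, mt-Atp6 up to chrM:7989).
mt-Atp8: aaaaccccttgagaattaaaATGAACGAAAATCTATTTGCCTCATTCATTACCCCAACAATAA
mt-Atp6: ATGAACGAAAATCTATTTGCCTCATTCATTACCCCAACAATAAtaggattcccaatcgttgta
mt-Atp6 (chrM:7927-8607) stood at 5718 (replicate 1) and 6098 TPM (replicate 2), and mt-Atp8 (chrM:7766-7969) at 5207 and 5159 TPM. mt-Atp8 is the only protein-coding gene lying wholly inside the copied stretch with no annotated copy, and it held whole-number counts, 12569 and 11626. The annotated copies on either side of it, Gm28661 and Gm10925, keep the same offset between chromosome 1 and mitochondrial positions. The chromosome 1 sequence between them was not searched, so mt-Atp8 lacks a match of 100 bases in annotated transcripts only. Its last 43 bases, shared with mt-Atp6, also match the start of Gm10925. mt-Atp6 received 72.6% and 77.9% of the reads pooled with Gm10925 and stood at 7881 and 7831 TPM when pooled. The log2 ratio of mt-Atp8 over mt-Atp6 was -0.14 and -0.24 as deposited and had a mean of -0.60 with the copy pooled. Here too the ratio compares reads over the genes and does not show separate RNAs. Because mt-Atp8 leaves room for only 105 read positions, its level rests on a short window.

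The order of the 13 protein-coding genes therefore depended on the treatment of the copies. As deposited it ran mt-Atp6, mt-Atp8, mt-Cytb, mt-Nd1, mt-Co1, mt-Co2, mt-Co3, mt-Nd4, mt-Nd2, mt-Nd6, mt-Nd5, mt-Nd3 and mt-Nd4l, over a span of 106-fold. Neighbours whose ranges overlapped were mt-Co2 with mt-Co3 and mt-Nd6 with mt-Nd5. Pooled, it ran mt-Co3, mt-Atp6, mt-Atp8, mt-Co2, mt-Cytb, mt-Co1, mt-Nd1, mt-Nd4, mt-Nd3, mt-Nd4l, mt-Nd2, mt-Nd6 and mt-Nd5, over 25.5-fold. There the ranges of mt-Co1 and mt-Nd1, of mt-Nd4 and mt-Nd3, and of mt-Nd6 and mt-Nd5 overlapped. mt-Co3 thus stood at rank 7 as deposited and at rank 1 pooled, and pooled it would be 3rd among all genes in replicate 1 and 2nd in replicate 2. The 12 protein-coding genes of the heavy strand summed to 25440 ± 454 TPM as deposited and 40662 ± 41.9 TPM pooled (SD, n = 2). mt-Nd6 stood at 413 ± 16.2 TPM. That contrast, too, describes the libraries only, because RNA selection was not taken into account.

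**Figure D3:**
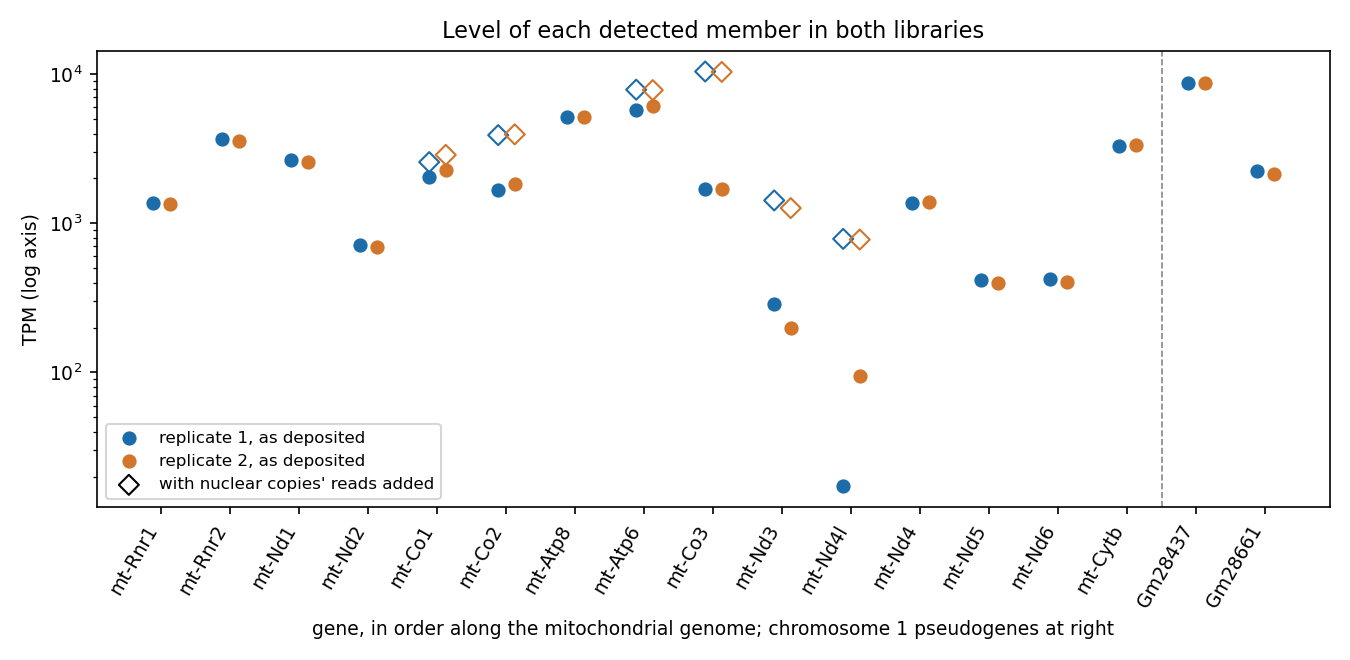
Level in TPM on a log axis of the 15 mitochondrial genes with counts, in genome order, and of the 2 pseudogenes, in replicate 1 (blue) and replicate 2 (orange), as deposited (filled) and with the reads of nuclear copies added (open diamonds, where more than 1% was added). The diamonds of mt-Co3 stand at 10435 and 10368 TPM, above every other point, while its filled points lie at 1697 and 1698 TPM.

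The deposited credibility interval was wide in the genes with nearly complete copies and narrow in the others. In the 7 genes with no shared window (mt-Rnr1, mt-Rnr2, mt-Nd1, mt-Atp8, mt-Nd5, mt-Nd6 and mt-Cytb) the upper bound was 1.01 to 1.07 times the lower bound, and all 7 held whole-number counts (within 0.005). Among all genes with 100 or more counts in both libraries, 71.6% of 12852 held whole numbers in both. mt-Nd2, mt-Co1 and mt-Nd4, with 3.19%, 30.8% and 60.8% of windows shared, had bounds 1.02 to 1.03 times apart. In mt-Co2, mt-Atp6, mt-Co3, mt-Nd3 and mt-Nd4l, with 97.6% to 99.9% shared, the bounds lay 1.62 to 165 times apart and no count was whole. Summed over a gene and its copies, the counts came within 0.01 of a whole number in all 8 pools and both libraries. The bounds belong to the posterior mean scale: the deposited TPM lay above the upper bound for 9 of the 17 genes in each library, so the bounds are used here for their width only.

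**Figure D4:**
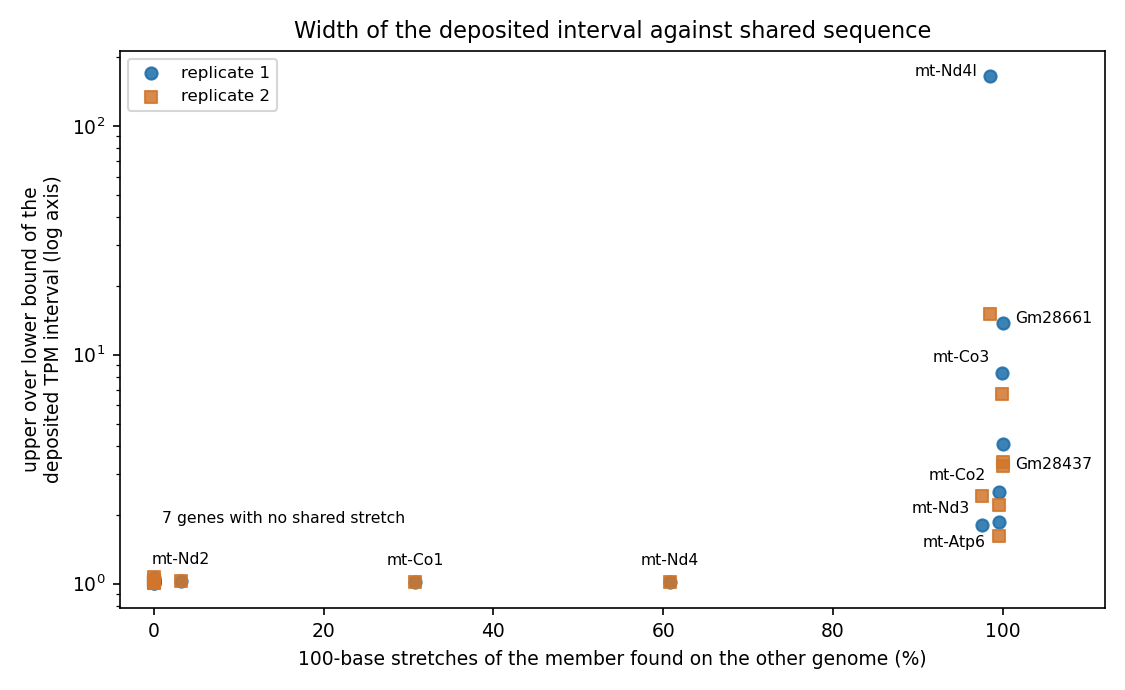
Upper over lower bound of the deposited TPM interval (log axis) against the percent of a gene's windows of 100 bases found in annotated transcripts of the other genome. Shown are the 17 genes with counts in replicate 1 (circles) and replicate 2 (squares). Nuclear sequence outside annotated transcripts was not searched. Points stay between 1.01 and 1.07 up to 60.8% shared, and lie between 1.62 and 165 from 97.6% upward.

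Differences between the libraries rest on 1 library each, with no replicate behind them, and the tests below compare these libraries rather than conditions. By an exact binomial test on counts scaled by TMM (a factor that evens out typical genes), 3 of the 17 genes were higher in replicate 2, 13 were lower and 1, mt-Atp6, was not called. Over all 19154 genes tested, 12.7% were called higher and 14.8% lower. Among the 1492 genes averaging at least 100 TPM, a level that most of the 17 exceed, 10.3% were called higher and 51.0% lower. The median log2 ratio was -0.09 over the 17 genes, -0.07 over those abundant genes and 0.0 over all genes tested. edgeR's exact test, which counts the typical difference of the 2 libraries as error, called only mt-Nd4l (adjusted p = 1.25e-15), against 0.656% of all genes. Neither test covers the split of shared reads, which sets the counts of the genes with nearly complete copies and of both pseudogenes. A gene and its copy draw on the same reads, so their calls are not separate evidence.

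The 7 genes with no shared window were all lower in replicate 2 and lay close together, with log2 ratios from -0.16 (mt-Nd6) to -0.06 (mt-Cytb). With spike-in counts as the scaling mt-Cytb stood at 0.0, and on the TPM scale mt-Cytb was slightly higher in replicate 2, as were mt-Co3 and mt-Nd4. The genes with nearly complete copies spread from -0.63 (mt-Nd3) to 2.38 (mt-Nd4l). Only these 2 genes lay beyond the size that 95% of the 500 genes nearest in level stayed within, which was 0.29 for mt-Nd3, 0.30 for mt-Nd4l and 0.27 for the others. With copies pooled they stood at -0.25 and -0.09, and 14 of the 15 genes were then called lower and 1, mt-Co1, higher, at 0.08. Pooled mt-Co1 stood at 2576 and 2880 TPM, and alone its log2 ratio lay between 0.08 and 0.15 under the scalings tried. Summed red blood cell and muscle markers were lower in replicate 2 as well, with the values given above. So was the heart list, whose sum is mostly 1 gene. Their part in these differences was not tested.

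**Figure D5:**
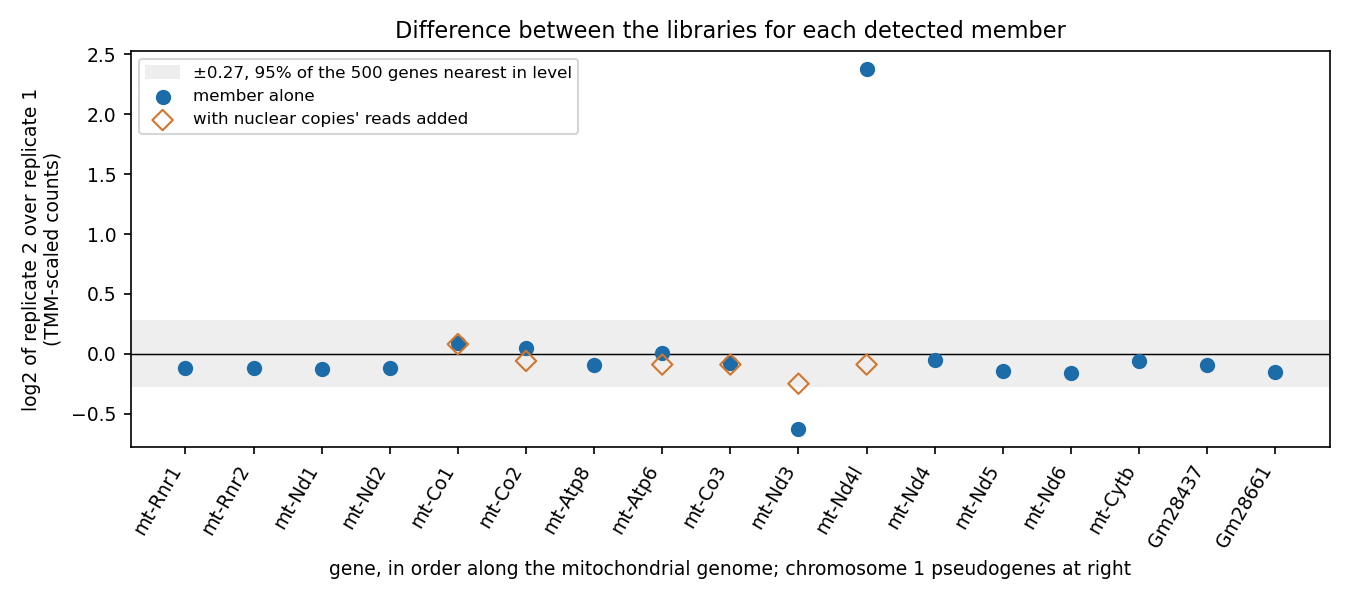
Log2 ratio of replicate 2 over replicate 1 on TMM-scaled counts for each of the 17 genes alone (blue) and with the reads of nuclear copies added (orange diamonds); the grey band of 0.27 on each side of 0 covers 95% of the 500 genes nearest in level (0.29 for mt-Nd3, 0.30 for mt-Nd4l). mt-Nd4l at 2.38 and mt-Nd3 at -0.63 lie outside the band alone and inside it when pooled. With spike-in counts as the scaling the points of mt-Nd4 and mt-Cytb move to 0.01 and 0.0.

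Nuclear genes supply the machinery that copies, reads and cuts mitochondrial RNA, and the remaining subunits of the same complexes. In the lists used here all 121 such genes were above 1 TPM in both libraries. Regulators were low. The 16 genes of mitochondrial DNA replication and transcription had a median of 15.9 TPM, led by Ssbp1, a DNA-binding protein, at 103 and 97.5 TPM in replicates 1 and 2. Mterf3, a factor of mitochondrial transcription, followed at 52.9 and 54.1 TPM. Tfam, which packages mitochondrial DNA and starts its transcription, stood at 44.0 and 43.9 TPM. The 33 genes of RNA processing and stability had a median of 20.2 TPM, led by Slirp, which stabilises mitochondrial messages, at 240.3 and 223 TPM. Next were Hsd17b10, a part of the enzyme that cuts the tRNA 5' ends, at 171 and 181 TPM, and Fastk at 93.0 and 87.4 TPM.

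Nuclear subunits stood higher, with medians of 238 TPM over 36 genes of complex I, 399 TPM over 9 of complex III, 546 TPM over 10 of complex IV and 488 TPM over 17 of ATP synthase. Complex I was led by Ndufc1 at 483 and 494 TPM, Ndufab1 at 432 and 434 TPM, and Ndufa3 at 439.7 and 408 TPM. Complex III was led by Uqcr10 at 582 and 523 TPM, Uqcr11 at 544 and 474 TPM and Uqcrb at 434 and 399 TPM. Cox6b1 led complex IV at 794 and 748 TPM, followed by Cox6c at 783 and 725 TPM and Cox4i1 at 743 and 729 TPM. Atp5b, the catalytic subunit of ATP synthase, was highest of all at 1559 and 1488 TPM, followed by Usmg5 at 977 and 824 TPM and Atp5g3 at 838 and 802 TPM. Among mitochondrial protein-coding genes as deposited, Atp5b was above mt-Nd4, mt-Nd2, mt-Nd6, mt-Nd5, mt-Nd3 and mt-Nd4l in both libraries and below the others. This order of nuclear and mitochondrial RNAs describes the libraries only, because RNA selection was not taken into account.

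By the exact binomial test, 0 of these 121 nuclear genes were called higher in replicate 2 and 72 lower, against 12.7% and 14.8% of all genes, and against 10.3% and 51.0% of genes averaging at least 100 TPM, a level that the medians of the 4 subunit lists exceed. The lower calls were 2 of 16 replication and transcription genes, 8 of 33 RNA processing genes, 28 of 36 in complex I, 7 of 9 in complex III, 10 of 10 in complex IV and 17 of 17 in ATP synthase. Median log2 ratios were -0.08, -0.10, -0.14, -0.20, -0.18 and -0.13 in that order. The largest called differences within a list were those of Mgme1 at -0.24, Trmt61b at -0.46, Ndufa1 at -0.26, Uqcr11 at -0.28, Cox7c at -0.22 and Atp5l at -0.46. Before adjustment, 3 were higher and 83 lower at the 0.05 threshold. edgeR's exact test called 0 of the 121 after adjustment, and before it 0 higher and 1 lower.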

How the data were processed

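Build mm10 and GENCODE M4 are named by the notes in the labels, and the values derive from transcriptome alignments of 1 library each. Not given in the sources used here were the aligner, the quantification program, the strand and the interval level. Expected counts and posterior mean counts, as the authors deposited them, estimate reads per feature and need not be whole. The deposited TPM sums to 1000000 per library, spike-ins included. The deposited FPKM served in an alternative only, and the deposited percent that each transcript takes of its gene was not used.

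Symbols and positions came from GENCODE M21 (GRCm38, the same assembly as mm10) by Ensembl identifier, with 42462 of 43346 matched. Lengths of all 47 members and copies were the same in both annotations. Effective length was length minus 99 nt, hence windows of 100 bases. Each window of every M21 transcript was searched on both strands in the 37 mitochondrial transcripts, which stood in for the mitochondrial genome, so stretches between genes were not searched. Nuclear sequence outside annotated transcripts was not searched either. Pooled TPM is the summed expected count of a gene and its copies over the gene's effective length, at the library's scale. Sequences are from the M21 transcripts.

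Expected counts were rounded to whole numbers. Library differences used a two-sided exact binomial test given TMM library sizes (a sum of 10 or more counts, Benjamini-Hochberg adjustment over all genes tested, threshold 0.05). The test was checked beforehand on simulated counts with known changes. Those held counting error only, so the check does not cover other spread between real libraries or the split of shared reads. The test itself covers counting error only. An alternative, edgeR's exact test, took its common dispersion from the same libraries. Ratios used log2(TPM + 0.1), and their libraries number too few for a test: the smallest p a sign-flip over 2 libraries allows is 0.5. Tools were Python 3.11.15, pandas 2.3.3, scipy 1.17.1, R 4.3.3, edgeR 4.0.16 and DESeq2 1.42.0 (size factors).

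The members and gene lists were chosen with earlier results of these data known. Named beyond the members were nuclear features sharing a window and, of each list, the 3 genes of highest mean TPM and the called gene of largest log2 ratio. Y-linked genes were chosen after their values were known. Pooling all copies was an alternative chosen after seeing the data.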

Additional observations from a re-analysis of the deposited data

How the results depend on the processing

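Detection of 17 members and the full match of both pseudogenes held under every alternative run for them. The alternatives for detection kept the deposited split of shared reads, so they do not test whether either pseudogene is transcribed. Pooling the 2 chromosome 1 pseudogenes, pooling all copies (chosen after seeing the data) and using posterior means moved other values, as follows. The log2 ratio of summed rRNA over protein-coding RNA, -2.37, became -2.88, -3.04 and -2.49 in that order. That of heavy-strand protein-coding genes over mt-Nd6, 5.94, became 6.46, 6.62 and 6.07. Both ratios describe the libraries only, because RNA selection was not taken into account. With all copies pooled, mt-Atp8 over mt-Atp6 moved from -0.19 to -0.60, mt-Nd4l over mt-Nd4 from -5.09 to -0.81 (-4.23 by posterior mean), and mt-Co1 over mt-Nd1 turned from -0.27 to 0.06. By posterior mean, Gm28437 over mt-Co3 moved from 2.36 to 0.84, and Gm28661 over mt-Co2 turned from 0.33 to -0.33. The share of counts, 1.75%, was 2.25% with the 2 pseudogenes, 2.42% with all copies, 1.65% of all counts with spike-ins, and 1.85% by posterior mean count. The rank of mt-Co3, 7, was 1 under either pooling and 3 by posterior mean; that of mt-Co2, 6, was 4 under either pooling. Leaving out each replicate in turn gave ranks 6 to 7 for both genes, and a log2 ratio of mt-Nd4l over mt-Nd4 from -6.30 without replicate 2 to -3.87 without replicate 1.

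Calls between the libraries, 3 higher and 13 lower, were 4 and 12 by total counts and 4 and 9 by spike-in counts. By edgeR's exact test they were 1 and 0 (1 and 1 before adjustment). Of the 15 genes left after pooling, they were 2 and 12 with the 2 pseudogenes pooled, and 1 and 14 with all copies pooled. Among single genes, mt-Co2 turned from 0.05 to -0.06 under either pooling, mt-Atp6 from 0.01 to -0.09 and mt-Nd4l from 2.38 to -0.09 with all copies pooled, and mt-Nd4 from -0.05 to 0.01 with spike-in counts as the scaling. Over the settings tried for each gene, 89 values kept direction and call, 19 lost the call, 2 gained one and 5 turned. Among nuclear genes, 0 higher and 72 lower became 3 higher and 55 lower by total counts, 7 higher and 45 lower by spike-in counts, and 0 lower by edgeR's exact test. Pooling adds the copies' reads to the mitochondrial gene by construction; the cause of the other changes was not tested. No paired analysis was possible because all samples belong to 1 group. The detected member with the fewest counts, mt-Nd4l, held 78.3 expected counts in replicate 1. This is its 2.19% of the reads pooled with Gm10222, with a posterior standard deviation of 113.72 counts. It therefore does not show that mt-Nd4l was securely detected in that library.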
